A study of Sus scrofa with 23 samples.

Results

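SLC6A19, SLC6A18, SLC6A20, SLC6A15, SLC6A7, SLC3A1, SLC7A9, SLC7A13, SLC36A1 and SLC36A2 encode carriers of neutral and dibasic amino acids, most of them known from the luminal membrane of kidney tubule cells. They were chosen by symbol, as transporters of the apical B0, imino acid and cystine systems, and all 10 were found among the 26687 genes of the annotation. Their RNA was measured in kidney cortex of 23 newborn pigs by RNA-Seq after depletion of ribosomal RNA. Each library comes from another pig. By label 6 pigs are CFTR+/+ (WT), 6 are CFTR+/– (HET) and 11 are CFTR–/– (CF), and the study bred such pigs from CFTR+/– parents. The WT and HET libraries together form the 12 non-CF libraries with which the CF libraries were compared. Libraries held between 32901281 and 52952273 estimated counts, and at this depth 3 counts correspond to between 0.0567 and 0.0912 CPM (counts scaled to a fixed library total). This limit covers counting error only.

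Amino acids filtered in the glomerulus are taken back almost completely in the proximal tubule. Carriers of the luminal brush border bring them into the cell, and other carriers release them on the blood side. Loss of SLC6A19 causes Hartnup disorder, in which neutral amino acids are lost in the urine, and loss of SLC3A1 or SLC7A9 causes cystinuria, in which poorly soluble cystine forms stones.

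CFTR, the disrupted gene, was examined first. By label its RNA was more abundant with more disrupted alleles, an order opposite to that of the intact alleles. The lowest, median and highest CPM were 1.27, 2.24 and 3.67 under the label WT, 9.41, 12.1 and 17.5 under HET, and 12.5, 20.7 and 23.5 under CF. Every library labelled HET or CF lay above every library labelled WT. The count is a sum over annotated transcripts and cannot tell intact from disrupted ones, so it does not show whether the labels hold. Directions given below are therefore directions between labels. The libraries also fell into 2 sets on the second axis of a multidimensional scaling, which held 10.6% of the variance. The lower-numbered pigs (1 to 6 and 12 to 18) gave 13 libraries, of which 6 are labelled CF, and the higher-numbered pigs (7 to 11 and 19 to 23) gave 10, of which 5 are labelled CF. Values are also given within each set. The first axis, with 17.2% of the variance, also left a gap, between CF pig 8 (-0.451) and HET pig 15 (0.191). Of the non-CF libraries, HET pig 14 and WT pigs 16, 18, 22 and 23 lay on its low side. The labels HET and WT were thus unevenly split there, and no comparison was made by this axis.

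Markers of the proximal tubule, the tubule segment that holds most of these carriers, were present in all libraries. The 12 listed genes summed to 3381 ± 560 TPM (SD, n = 23; transcript estimates scaled for length and library). No gene of this list had a mean under 0.1 TPM, nor did any of the 4 early-segment and 4 late-segment markers found. RNA of the podocyte, loop, collecting duct and endothelial lists was present as well. In such bulk tissue, fewer cells of a type and less RNA per cell cannot be told apart.

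Levels of the 10 carriers were compared as TPM, which accounts for transcript length. SLC3A1 had the highest mean, 52.8 ± 15.7 TPM (SD, n = 23), rank 1288 of 25518 genes with a value. SLC6A18 followed with 46.8 ± 10.1 TPM (SD, n = 23, as for the members that follow) and was below SLC3A1 in only 13 of 23 libraries, so their order lay within the spread. SLC7A9 had 22.99 ± 5.13 TPM, below SLC6A18 in all 23 libraries. SLC6A20 (12.7 ± 2.72 TPM) and SLC6A19 (8.34 ± 3.55 TPM) came next, and SLC6A20 was the higher of the pair in 18 libraries. The carrier of Hartnup disorder thus had less RNA than its gene neighbor SLC6A18. SLC7A13 had 6.35 ± 2.18 TPM and did not separate from SLC6A19, which was higher in 13 libraries. SLC36A1 had 4.44 ± 0.654 TPM, with SLC7A13 above it in 16 libraries. SLC6A15 (2.12 ± 0.730 TPM) and SLC6A7 (0.449 ± 0.229 TPM), both best known from brain, were low, and SLC36A2 was lowest with 0.138 ± 0.0776 TPM. The 10 genes together summed to 153 ± 30.8 TPM (SD, n = 6) under the label WT, 168 ± 24.4 TPM (SD, n = 6) under HET and 154 ± 22.7 TPM (SD, n = 11) under CF. These sums overlapped widely, from 108 to 199 TPM for WT, 148 to 211 TPM for HET and 123 to 192 TPM for CF.

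Spread between pigs differed among the members. SLC36A1 was the steadiest, with a highest level 1.57 times its lowest. SLC6A19 ranged over 5.12 times and SLC3A1 over 4.33 times, whereas SLC6A18 ranged over 2.15 times. SLC6A7 ranged over 6.89 times. No such ratio is given for SLC36A2, whose lowest library had 1 count. WT pig 12 gave the lowest level of SLC3A1, SLC7A9 and SLC7A13, and it also had the lowest summed TPM of the 12 proximal tubule markers (2264 TPM).

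**Figure D1:**
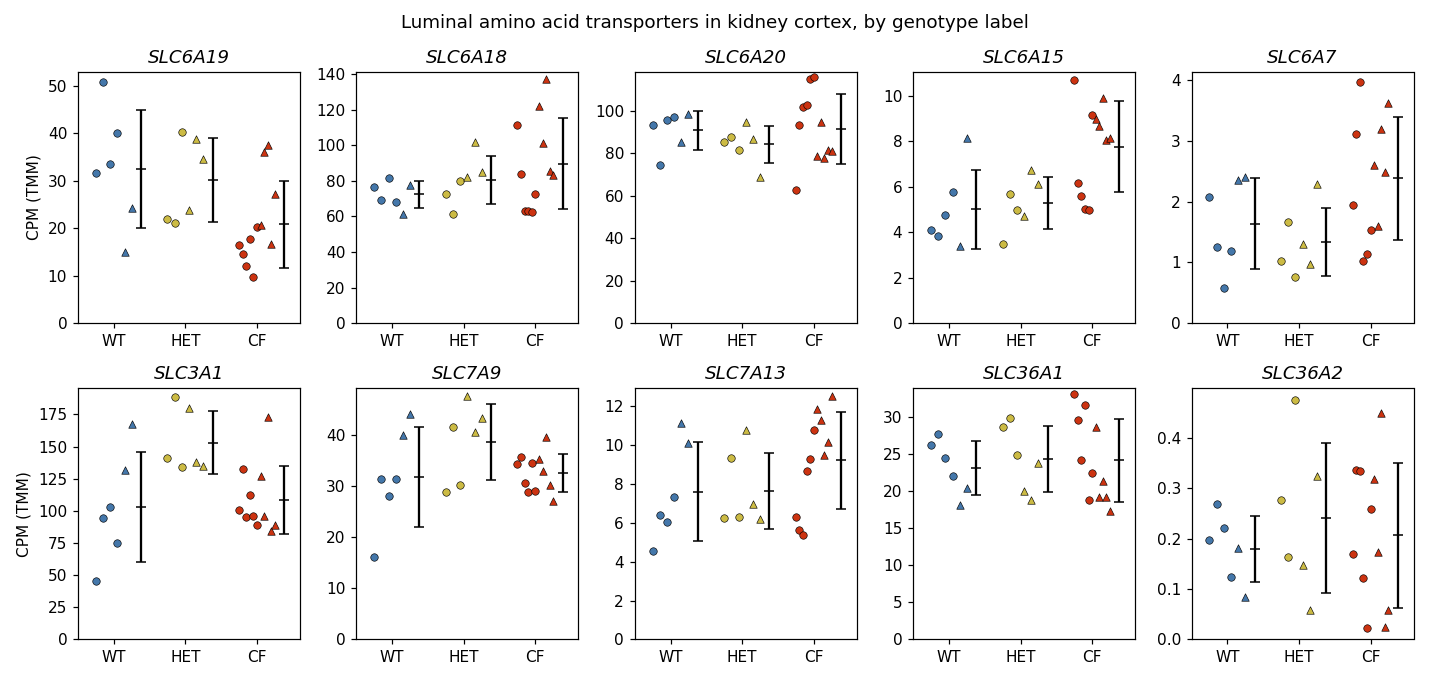
CPM after TMM scaling (vertical axes, from 0) of the 10 carriers in each library by genotype label, with circles for lower-numbered and triangles for higher-numbered pigs, and the mean and SD of each label as line and bar. For SLC6A19 the CF circles (9.63 to 20.2 CPM) lie below all WT and HET circles (21.1 to 50.9 CPM), while the triangles overlap.

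Of the 10 genes, 9 passed the expression filter, and SLC36A2 did not. Tested by the quasi-likelihood method of edgeR, with p adjusted after Benjamini and Hochberg over 20921 genes, 0 of the 9 members had an adjusted p under 0.05 for CF against non-CF, where 0.349% of all genes did. At an unadjusted p under 0.05 there were 3 members (SLC6A15, SLC6A19 and SLC6A7) and 2868 genes (13.7%). DESeq2 called 1 member, SLC6A15, and 3.06% of the genes it tested. An exact Mann-Whitney U test called 0 members and 0.210% of genes, with 3 members and 2495 genes (11.4%) at an unadjusted p under 0.05. The log2 fold change was above 0 for 6 members and below 0 for 3, with a median of 0.063 against -0.00052 over all genes. The 95% interval of the difference lay within 1 log2 unit of 0 for 7 of the 9 members and within 0.5 for 4, and for 20121 and 15930 of all 20921 genes. Counts of libraries below are by CPM after TMM scaling, and where TPM gave another count, that is stated.

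The 3 labels were also compared in pairs. For CF against WT edgeR again called 0 members, with 0.349% of all genes called, and 2 members and 2959 genes (14.1%) at an unadjusted p under 0.05. DESeq2 called 1 member there and 3.03% of genes. For HET against WT edgeR called 0 members, with 0.00478% of genes called, and 1 member (SLC3A1) and 1672 genes (7.99%) at an unadjusted p under 0.05. For CF against HET edgeR called 0 members and 0% of genes, with 4 members (SLC3A1, SLC6A15, SLC6A19 and SLC6A7) and 2069 genes (9.89%) at an unadjusted p under 0.05. DESeq2 called 0 members in both of these comparisons, and 0.147% and 0.333% of genes. The comparisons share libraries and are not independent of each other. A test of whether the difference between CF and non-CF varied between the pig number sets called 0 members under edgeR, with 0.0191% of genes called, and 2 members (SLC6A19 and SLC7A9) and 2120 genes (10.1%) at an unadjusted p under 0.05. DESeq2 called 0 members there and 0.789% of genes.

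SLC6A19 (gene 641346, chromosome 16 from 79293940 to 79310922 of Sscrofa11.1, minus strand) is the main luminal carrier of neutral amino acids. It had 14.9, 32.6 and 50.9 CPM at the lowest, median and highest under the label WT, 21.1, 29.2 and 40.4 CPM under HET, and 9.63, 17.7 and 37.5 CPM under CF. Most libraries labelled CF were low, with 9 of 11 below the non-CF median and 3 (by TPM 5) below every non-CF library, but the groups overlapped. CF against non-CF gave a log2 fold change of -0.59 (SE 0.213) and an edgeR quasi-likelihood, Benjamini-Hochberg adjusted p of 0.198. Over 30 alternatives (DESeq2, scaling, filter, the sets as a term or alone, and left-out libraries) the adjusted p of edgeR or DESeq2 ran from 0.0852 to 0.981, and such ranges below cover the same 30.

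Within the lower-numbered pigs all 6 libraries labelled CF (9.63 to 20.2 CPM) lay below all 7 non-CF libraries (21.1 to 50.9 CPM) after TMM scaling. By TPM the groups overlapped, with CF pig 6 (7.36 TPM) above HET pigs 14 and 13 (6.35 and 6.72 TPM), and by CPM without TMM scaling CF pig 6 (21.5 CPM) was above HET pig 14 (20.8 CPM). After TMM scaling SLC6A19 was the 1 of the 9 members among the 20921 filtered genes whose groups did not overlap in this set. That was the case for 0.631% of those genes. By TPM there were 0 such members of 10, and no share over all genes was formed by TPM. In this set edgeR called 0% of genes and 1958 genes (9.31%) had an unadjusted p under 0.05. Its log2 fold change there was -1.18 (SE 0.209), with an edgeR quasi-likelihood, Benjamini-Hochberg adjusted p of 0.0852. Within the higher-numbered pigs all 5 libraries labelled CF (16.7 to 37.5 CPM) lay inside the non-CF range (14.9 to 38.8 CPM), with a log2 fold change of 0.021 (SE 0.257). By TPM CF pig 8 (13.3 TPM) lay above that range (5.15 to 11.9 TPM). The difference between the sets itself had a Benjamini-Hochberg adjusted p of 0.212 under edgeR's quasi-likelihood test and was not called. The non-CF side differed between the sets by label. Libraries labelled WT had 39.1 ± 8.67 CPM (SD, n = 4) in the lower-numbered and 19.6 ± 6.67 CPM (SD, n = 2) in the higher-numbered pigs, and those labelled HET 27.8 ± 10.9 and 32.4 ± 7.72 CPM (SD, n = 3 each).

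Summed proximal tubule markers are given beside SLC6A19. In the lower-numbered pigs the 12 genes had 3177 ± 435 TPM (SD, n = 6) under the label CF and 2964 ± 443 TPM (SD, n = 7) in non-CF, and the 4 early-segment markers 283 ± 41.3 and 296 ± 28.4 TPM. SLC4A4, the basolateral bicarbonate carrier and most abundant of the early markers, had 133 ± 27.6 and 130.2 ± 17.5 TPM. None of these markers had a mean under 0.1 TPM.

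SLC6A18 (gene 100520648, chromosome 16 from 79278126 to 79292463, minus strand), a carrier of glycine and other neutral amino acids, lies 1477 bases from SLC6A19 on the same strand. It had 61.4, 72.9 and 81.5 CPM under the label WT, 61.3, 81.1 and 102 CPM under HET, and 62.6, 83.9 and 138 CPM under CF. The groups shared their lower end, and 3 libraries labelled CF exceeded all non-CF libraries. CF pig 9 was the highest. CF against non-CF gave SLC6A18 a log2 fold change of 0.23 (SE 0.123), with an edgeR quasi-likelihood, Benjamini-Hochberg adjusted p of 0.417 (0.218 to 0.920 over the alternatives). In the lower-numbered pigs the log2 fold change was 0.065 (SE 0.1235), with 76.1 ± 19.1 CPM (SD, n = 6) under CF and 72.7 ± 7.14 CPM (SD, n = 7) in non-CF. In the higher-numbered pigs it was 0.38 (SE 0.155), with 106 ± 23.45 and 81.7 ± 14.55 CPM (SD, n = 5 each) and all 5 libraries labelled CF above the non-CF median.

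Despite their adjacency, SLC6A18 and SLC6A19 were only weakly related over the 23 libraries (Pearson r = 0.32, Spearman rho = 0.26 on log2 CPM, r = 0.10 and 0.56 in lower- and higher-numbered pigs, and 0.33 without CF pigs 7 and 9, the farthest from the SLC6A18 median). Their TPM ratio, SLC6A18 over SLC6A19, was formed after their values had been seen and was not tested. It was 4.56 ± 1.80 (SD, n = 6) under the label WT, between 3.56 and 6.201 with a median of 4.96 under HET and 8.49 ± 2.57 (SD, n = 11) under CF. Within sets the CF ratio was 9.39 ± 2.50 (SD, n = 6) in the lower-numbered and 7.40 ± 2.44 (SD, n = 5) in the higher-numbered pigs. The WT ratio was 3.55 ± 0.951 (SD, n = 4) and 6.57 ± 1.17 (SD, n = 2), and the HET ratio 4.89 ± 1.20 and 5.11 ± 0.957 (SD, n = 3 each), so WT and CF lay close in the higher-numbered pigs.

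SLC6A20 (gene 100621879, chromosome 13 from 28897831 to 28945191, minus strand) carries proline and other imino acids. Its levels ran from 74.4 to 98.7 CPM under the label WT, 69.1 to 94.5 CPM under HET and 62.7 to 116 CPM under CF. The CF range enclosed both others, with CF pig 1 lowest and CF pig 6 highest. For CF against non-CF the log2 fold change was 0.063 (SE 0.0868), and its 95% interval ran from -0.12 to 0.24. With 1 library left out it was 0.022 (without CF pig 6) to 0.11 (without CF pig 1). The sets went opposite ways. In the lower-numbered pigs it was 0.17 (SE 0.124), with 98.5 ± 19.5 CPM (SD, n = 6) under CF and 87.9 ± 8.18 CPM (SD, n = 7) in non-CF, and 4 of 6 libraries labelled CF (by TPM 2) above all non-CF libraries. In the higher-numbered pigs it was -0.061 (SE 0.0955), with 82.9 ± 6.92 and 86.9 ± 11.4 CPM (SD, n = 5 each). With SLC6A18 it had one of the most negative correlations of the 36 member pairs (Pearson r = -0.52, Spearman rho = -0.53, n = 23), at -0.65 in the lower-numbered and -0.26 in the higher-numbered pigs, and -0.44 without CF pigs 1 and 6, the farthest from the SLC6A20 median.

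The 3 annotated SLC6A20 transcripts took unequal shares of its TPM. The transcript of 7510 bases held 24.3% ± 13.6 (SD, n = 6) under the label WT, 10.2% ± 5.43 (SD, n = 6) under HET and 6.82% ± 7.58 (SD, n = 11) under CF. WT pigs 12 and 22 had the largest shares (39.2% and 39.7%), while WT pigs 17 and 23, with 12.2% and 6.40%, lay inside the range of the libraries labelled CF (0.00159% to 19.7%). The transcript of 7532 bases held 29.6% ± 14.95, 54.1% ± 10.6 and 51.2% ± 9.47 under WT, HET and CF. These transcripts share most of their sequence, so the split of reads among them is uncertain, and the shares were not tested. They were singled out after their values had been seen.

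**Figure D2:**
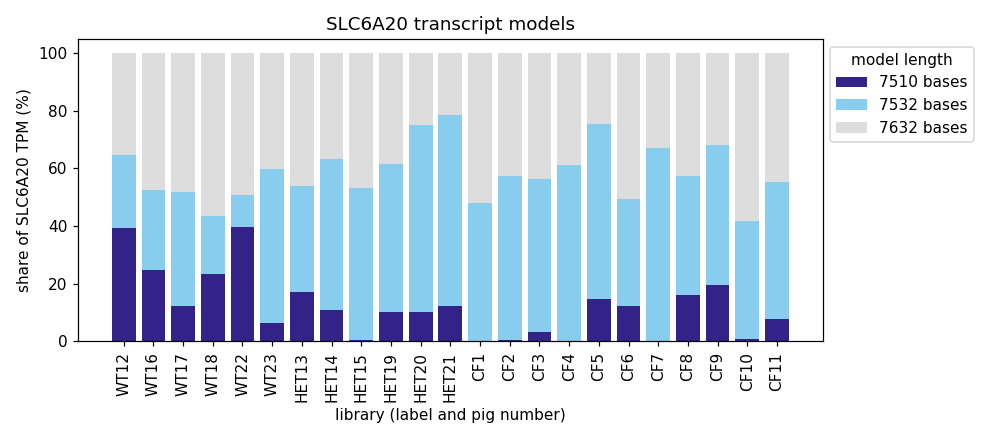
Share of SLC6A20 TPM (vertical axis, percent, from 0) held by each of 3 annotated transcripts in every library (horizontal axis, label and pig number). The dark segment, the 7510-base transcript, reaches 39.7% in WT pig 22 and stays at or below 19.7% in the libraries labelled CF.

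SLC3A1 and SLC7A9 encode the heavy and light subunits of the luminal exchanger that takes up cystine and dibasic amino acids. SLC3A1 (gene 100144588, chromosome 3 from 96157387 to 96201057, minus strand) had 45.2, 98.7 and 167 CPM at the lowest, median and highest under the label WT. It had 134, 140 and 188 CPM under HET and 84.2, 96.2 and 173 CPM under CF. Of the libraries labelled HET, 6 of 6 were above the WT median, but only 2 exceeded every WT library and 4 lay inside the WT range. By TPM only HET pig 19 (87.5 TPM) exceeded every WT library, since HET pig 14 (80.17 TPM) was below WT pig 23 (80.61 TPM). Of the libraries labelled CF, 10 of 11 lay below every HET library, CF pig 9 being the exception. By TPM 9 did, since CF pig 2 (54.6 TPM) was above HET pig 21 (53.8 TPM) as well.

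The log2 fold change of SLC3A1 was 0.57 (SE 0.217) for HET against WT, with an edgeR quasi-likelihood, Benjamini-Hochberg adjusted p of 0.559 (0.301 to 0.818 over its alternatives). CF against HET gave -0.49 (SE 0.187) and an adjusted p of 0.394 by the same edgeR test, and over its alternatives 0.268, with DESeq2, to 0.702. CF against WT gave 0.080 (SE 0.191). Without WT pig 12 the value for HET against WT was 0.43 and without WT pig 23 it was 0.77. The means of labels WT and HET differed chiefly in the lower-numbered pigs, with 79.4 ± 25.6 CPM (SD, n = 4) against 155 ± 29.4 CPM (SD, n = 3). In the higher-numbered pigs they had 149.6 ± 25.1 CPM (SD, n = 2) and 151 ± 25.3 CPM (SD, n = 3), and this difference between sets was not tested. Pooled as CF against non-CF, SLC3A1 had a log2 fold change of -0.23 (SE 0.174). It was -0.089 (SE 0.2345) in the lower-numbered pigs, with 104 ± 15.9 CPM (SD, n = 6) under CF and 111.7 ± 47.2 CPM (SD, n = 7) in non-CF, and all 6 CF libraries inside the non-CF range. It was -0.39 (SE 0.180) in the higher-numbered pigs, with 113.9 ± 37.1 and 150.5 ± 21.9 CPM (SD, n = 5 each), and 4 of 5 CF libraries below all 5 non-CF libraries.

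SLC7A9 (gene 100037973, chromosome 6 from 42664795 to 42706113, minus strand) had 16.1, 31.4 and 44.1 CPM under the label WT, 28.8, 41.1 and 47.7 CPM under HET, and 27.2, 33.1 and 39.7 CPM under CF. All 11 libraries labelled CF lay inside the non-CF range, and 10 of them below its median. CF against non-CF gave a log2 fold change of -0.11 (SE 0.124), with an edgeR quasi-likelihood, Benjamini-Hochberg adjusted p of 0.753 (0.0699 to 0.869 over the alternatives). With 1 library left out the log2 fold change was -0.18 (without WT pig 12) to -0.066 (without HET pig 19).

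For SLC7A9 the groups were apart in the other set. In the higher-numbered pigs all 5 libraries labelled CF (27.2 to 39.7 CPM) lay below all 5 non-CF libraries (40.1 to 47.7 CPM). It was the 1 of the 9 members among the 20921 filtered genes whose groups did not overlap there, as was the case for 4.64% of those genes. In this set edgeR called 2.27% of genes but 0 members, with 4 members and 3635 genes (17.4%) at an unadjusted p under 0.05. The SLC7A9 groups were apart in this set by TPM as well, narrowly, with CF at 20.2 to 26.02 TPM and non-CF at 26.08 to 35.1 TPM. By CPM without TMM scaling there were 2 such members, as the libraries labelled CF also had more SLC6A15 (8.395 to 9.175 CPM) than all non-CF libraries (at most 8.22 CPM). No share over all genes was formed by TPM or without TMM scaling, so these counts have none beside them. SLC7A9 had a log2 fold change of -0.37 (SE 0.1) in this set, with an edgeR quasi-likelihood, Benjamini-Hochberg adjusted p of 0.0699. In the lower-numbered pigs, CF libraries (29.0 to 35.7 CPM) lay within the non-CF range (16.1 to 41.5 CPM), with a log2 fold change of 0.13 (SE 0.147). The difference between the sets had a Benjamini-Hochberg adjusted p of 0.375 under edgeR's quasi-likelihood test. The non-CF mean was 29.6 ± 7.48 CPM (SD, n = 7) in the lower-numbered and 43.2 ± 3.02 CPM (SD, n = 5) in the higher-numbered pigs, whereas the CF mean was 32.2 ± 3.02 and 33.1 ± 4.80 CPM.

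Among marker lists, the summed level of the 6 loop and distal tubule genes was also lower under the label CF in the higher-numbered pigs, at 668 ± 96.7 TPM (SD, n = 5) against 1061 ± 141 TPM (SD, n = 5) in non-CF, and in the lower-numbered pigs at 613 ± 46.8 against 722 ± 135 TPM. UMOD, uromodulin of the thick ascending limb and the most abundant gene of that list over all libraries (189 ± 55.3 TPM, SD, n = 23), was the 1 gene of the 6 that was not lower there, with 206 ± 32.4 TPM under CF and 161 ± 32.1 TPM in non-CF. CALB1, named here after its values were seen, had 79.9 ± 38.4 TPM under CF and 396 ± 135 TPM in non-CF, the largest gap of the 6. None of the 6 had a mean under 0.1 TPM. In the fit of all 23 libraries, 0 of the 6 were called for CF against non-CF by edgeR and 3 had an unadjusted p under 0.05. Of all genes 0.349% and 13.7% did. Calls of these 6 genes within the higher-numbered pigs alone are not given. The 12 proximal tubule genes summed to 3916 ± 337 TPM under CF and 3675 ± 499 TPM in non-CF in the higher-numbered pigs, and the 4 early-segment markers to 339.8 ± 34.0 and 361 ± 61.1 TPM. SLC4A4, most abundant of these, had 139 ± 18.01 and 169.8 ± 30.3 TPM. In the same pigs the endothelial list had 128.7 ± 15.1 TPM under CF and 152 ± 16.5 TPM in non-CF. The leukocyte list had 9.27 ± 2.03 and 11.57 ± 1.77 TPM. Podocyte and hepatocyte lists were higher under CF, at 295.3 ± 46.1 against 287.3 ± 29.2 TPM and 140.4 ± 29.5 against 112.7 ± 47.4 TPM. The part of these lists in the SLC7A9 difference was not tested.

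SLC3A1 and SLC7A9 had the highest correlation of the 36 member pairs (Pearson r = 0.84, Spearman rho = 0.68 on log2 CPM, n = 23). It was 0.79 in the lower-numbered and 0.91 in the higher-numbered pigs, and 0.69 without WT pig 12 and HET pig 19, the libraries farthest from the SLC7A9 median. Their TPM ratio was 2.29 ± 0.430 (SD, n = 23), with 2.10 ± 0.360 under the label WT, 2.67 ± 0.469 under HET and 2.19 ± 0.341 under CF. PDZK1, a scaffold protein of the brush border, followed both subunits (r = 0.76 with SLC3A1 and 0.78 with SLC7A9, rho = 0.63 and 0.71, n = 23). Within the lower- and higher-numbered pigs r was 0.72 and 0.81 for SLC3A1 and 0.76 and 0.56 for SLC7A9, and without the 2 libraries farthest from the median of the subunit it was 0.66 and 0.65. These genes share library and tissue composition, and the correlations are descriptions.

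**Figure D3:**
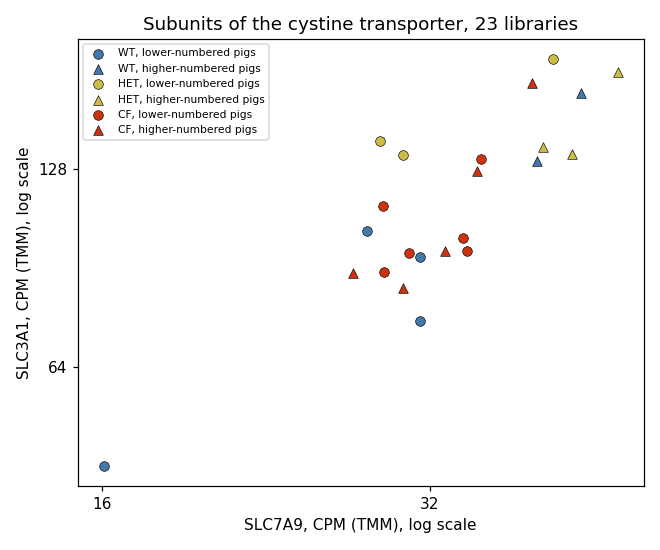
SLC3A1 against SLC7A9 in 23 libraries, both in CPM after TMM scaling on logarithmic axes, with colors for the label, circles for lower-numbered and triangles for higher-numbered pigs. WT pig 12 is lowest for both genes (45.2 and 16.1 CPM), and libraries labelled HET lie at 134 CPM of SLC3A1 or above.

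The 250 bases before the annotated starts of both subunits, the pair with the highest correlation, were read from Sscrofa11.1 on the strand of the gene. They are shown as a description, and no relation of these bases to the RNA levels was tested. They cover chr3:96201058-96201307 for SLC3A1 and chr6:42706114-42706363 for SLC7A9, both on the minus strand, and are printed in lower case.
SLC3A1: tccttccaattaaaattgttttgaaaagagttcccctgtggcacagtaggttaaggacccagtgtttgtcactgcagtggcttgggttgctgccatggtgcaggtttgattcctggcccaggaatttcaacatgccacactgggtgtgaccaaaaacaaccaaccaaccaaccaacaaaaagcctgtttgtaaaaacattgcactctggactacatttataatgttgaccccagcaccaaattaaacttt
SLC7A9: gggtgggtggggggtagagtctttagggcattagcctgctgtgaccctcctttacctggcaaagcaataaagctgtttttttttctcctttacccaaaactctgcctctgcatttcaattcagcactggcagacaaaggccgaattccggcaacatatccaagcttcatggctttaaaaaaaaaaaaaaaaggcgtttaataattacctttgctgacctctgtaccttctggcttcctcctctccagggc

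Of the SLC7A9 TPM, 57.1% ± 11.8 (SD, n = 23) was assigned to a 1688-base transcript that the annotation types as non-coding, 26.8% ± 15.04 to a coding transcript of 1729 bases and 16.1% ± 7.28 to one of 1680 bases. The non-coding share was 50.8% ± 15.1 under the label WT, 60.1% ± 9.32 under HET and 58.9% ± 10.8 under CF, within the spread of each other. The transcripts are alike in sequence and length, so this split is uncertain as well.

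SLC7A13 (gene 100620567, chromosome 4 from 50614261 to 50642387, plus strand), the other light subunit known to pair with SLC3A1, carries cystine and acidic amino acids in the late proximal tubule. It had 4.53 to 11.15 CPM under the label WT, 6.19 to 10.8 CPM under HET and 5.39 to 12.5 CPM under CF, and 3 libraries labelled CF exceeded all non-CF libraries. CF against non-CF gave 0.28 on the log2 scale (SE 0.160), with an edgeR quasi-likelihood, Benjamini-Hochberg adjusted p of 0.469 (0.341 to 0.767 over the alternatives). Within the lower- and higher-numbered pigs it was 0.23 (SE 0.184) and 0.30 (SE 0.164). Higher-numbered pigs had more, 10.1 ± 2.04 CPM (SD, n = 10) against 7.09 ± 1.85 CPM (SD, n = 13).

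SLC36A1 and SLC36A2 encode carriers that move small neutral amino acids such as proline and glycine together with protons. SLC36A1 (gene 100514926, chromosome 16 from 71540646 to 71589532, minus strand) ran from 18.04 to 27.6 CPM under the label WT, 18.7 to 29.8 CPM under HET and 17.3 to 33.1 CPM under CF. The labels overlapped throughout, and the 95% interval of the log2 fold change for CF against non-CF was -0.21 to 0.26 around 0.024 (SE 0.114). Within the lower- and higher-numbered pigs the fold change was 0.022 (SE 0.119) and 0.072 (SE 0.133). It was lower in the higher-numbered pigs, at 20.7 ± 3.33 CPM (SD, n = 10) against 26.4 ± 4.11 CPM (SD, n = 13). SLC36A2 (gene 100515104, chromosome 16 from 71661946 to 71689464, plus strand), a carrier of glycine and proline, had 1 to 21 counts and 0.0231 to 0.476 CPM in the 23 libraries. CF pigs 5, 10 and 11 were below the limit of 3 counts. Without the filter, CF against non-CF gave SLC36A2 a log2 fold change of -0.015 (SE 0.392), with a wide 95% interval of -0.82 to 0.79.

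SLC6A15 (gene 100628231, chromosome 5 from 97093197 to 97148606, plus strand), a carrier of branched-chain amino acids and proline, came nearest to the threshold of all members. It had 3.38, 4.44 and 8.14 CPM under the label WT, 3.47, 5.32 and 6.73 CPM under HET, and 4.99, 8.17 and 10.7 CPM under CF. All 11 libraries labelled CF were above the non-CF median and 6 were above every non-CF library, while WT pig 23 reached the CF levels. By TPM 9 were above the non-CF median, CF pigs 4 and 5 lying below it, and 5 above every non-CF library. CF against non-CF gave 0.59 on the log2 scale (SE 0.154), with an edgeR quasi-likelihood, Benjamini-Hochberg adjusted p of 0.0752. Over the alternatives this p ran from 0.0116 with DESeq2 to 0.332 in the lower-numbered pigs alone. It was under 0.05 in edgeR without CF pig 4 (adjusted p = 0.0400, Benjamini-Hochberg) or without WT pig 23. The size was alike in both sets, 0.57 (SE 0.190) in the lower-numbered and 0.59 (SE 0.190) in the higher-numbered pigs.

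Within the libraries labelled CF, the higher-numbered pigs had 8.08 to 9.89 CPM of SLC6A15, and 4 of the 5 (by TPM 3) exceeded all non-CF libraries of their set. Among the lower-numbered pigs, CF pigs 1 and 6 had 10.7 and 9.16 CPM, and the other 4 had 4.99 to 6.18 CPM.

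SLC6A7 (gene 100516251, chromosome 2 from 151221542 to 151241983, plus strand), the proline carrier of brain synapses, had 0.574, 1.66 and 2.40 CPM under the label WT, 0.751, 1.16 and 2.29 CPM under HET, and 1.01, 2.48 and 3.96 CPM under CF. Of the libraries labelled CF, 9 of 11 were above the non-CF median and 6 (by TPM 5) above all non-CF libraries. CF against non-CF gave 0.68 on the log2 scale (SE 0.252), with an edgeR quasi-likelihood, Benjamini-Hochberg adjusted p of 0.212 (0.106 to 0.487 over the alternatives). Within the lower- and higher-numbered pigs it was 0.80 (SE 0.346) and 0.54 (SE 0.275).

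Partners and regulators of the carriers were described from a list of 9 genes, among them TMEM27, which brings SLC6A19 to the membrane in kidney, and the transcription factor HNF4A. For CF against non-CF 7 were higher and 2 lower. edgeR's quasi-likelihood test called 0 of them, with 1 of the 9 at an unadjusted p under 0.05, beside 0.349% and 13.7% of all genes. That was TMEM27, with 69.7, 97.5 and 121 CPM under the label WT, 103, 124 and 149 CPM under HET and 98.0, 127.5 and 170.1 CPM under CF. TMEM27 had a log2 fold change of 0.22 (SE 0.103) and an edgeR quasi-likelihood, Benjamini-Hochberg adjusted p of 0.347. HNF4A had a log2 fold change of 0.097 (SE 0.127). TMEM27 had 96.8 ± 20.1 TPM (SD, n = 23), a mean above that of SLC6A19, and PDZK1 led the list with 301 ± 56.6 TPM (SD, n = 23).

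Carriers of the blood side were given by 8 genes, of which 4 were higher and 4 lower for CF against non-CF. edgeR called 0, with 0 at an unadjusted p under 0.05 (13.7% of all genes). SLC3A2, the heavy subunit of the basolateral exchangers, had a log2 fold change of -0.22 (SE 0.141), SLC7A7, the light subunit that releases dibasic amino acids, -0.13 (SE 0.144), and SLC38A3, a glutamine carrier, 0.37 (SE 0.212). Summed TPM of the 8 was 303 ± 54.6 (SD, n = 6) under the label WT, 304 ± 60.1 (SD, n = 6) under HET and 291 ± 56.9 (SD, n = 11) under CF. In the higher-numbered pigs it was 336 ± 23.8 TPM under CF and 339.8 ± 18.7 TPM in non-CF, against 253 ± 47.3 and 277 ± 58.0 TPM in the lower-numbered pigs.

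Of 10 listed relatives of the members, 9 were found and tested, with 7 higher and 2 lower for CF against non-CF, 0 called by edgeR and 1 at an unadjusted p under 0.05 (13.7% of all genes). That was SLC7A5, a carrier of large neutral amino acids, which the annotation types as a long non-coding RNA. SLC7A5 had a log2 fold change of 0.89 and lay just above the threshold (edgeR quasi-likelihood, Benjamini-Hochberg adjusted p = 0.05675). Libraries labelled CF had 53.2 ± 25.2 CPM (SD, n = 6) in the lower-numbered and 114 ± 24.4 CPM (SD, n = 5) in the higher-numbered pigs, against 44.0 ± 10.04 and 42.4 ± 6.18 CPM in non-CF.

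For each of the 9 members that passed the filter, the most similar genes among 14191 were taken by Pearson r of log2 CPM over 23 libraries, as a description. SLC3A1 was followed most closely by TTC1 (0.87), TMCO1 (0.87) and TINAG (0.86), and SLC7A9 by GLUD1 (0.87), RIDA (0.87) and MED8 (0.86). The genes nearest SLC6A20 were ASAH2 (0.89), MED6 (0.87) and RNPC3 (0.87), and those nearest SLC6A18 were C1QTNF5 (0.86), CYBA (0.84) and PXDC1 (0.84). SLC6A19 was nearest to BIN2 (0.75), GGT5 (0.74) and KLHL6 (0.74), and these r were 0.82, 0.86 and 0.82 in the lower-numbered and 0.54, 0.52 and 0.54 in the higher-numbered pigs.

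The other members gave comparable values. SLC6A15 was most like GATB (0.81), COL9A1 (0.80) and UHRF1BP1L (0.80), of which UHRF1BP1L rose under the label CF by 0.29 on the log2 scale (SE 0.0627, edgeR quasi-likelihood, Benjamini-Hochberg adjusted p = 0.0415). SLC7A13 was most like KANSL2 (0.85), WDR33 (0.84) and EXOC5 (0.84), and SLC36A1 like MAML3 (0.82), TXNRD3 (0.81) and KDM4A (0.81). SLC6A7 came last with FAM3B (0.73), NCCRP1 (0.68) and POLM (0.66). No member was among the 3 nearest genes of another. Within the lower- or higher-numbered pigs these r ran from 0.52 (SLC6A19 and GGT5) to 0.95 (SLC6A20 and MED6).

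Marker lists of the cortex gave 0 called genes by edgeR for CF against non-CF in each of the 11 lists, where 0.349% of all genes were called and 13.7% had an unadjusted p under 0.05. Of the proximal tubule genes 9 were higher and 3 lower, with 3 at an unadjusted p under 0.05 and a median log2 fold change of 0.18. Early-segment markers had 2 higher and 2 lower, as did the late-segment markers. Of the loop and distal genes 1 was higher and 5 lower, and collecting duct genes were 3 and 3. Podocyte genes were 3 higher and 2 lower, nephron progenitor genes 4 and 1, endothelial and erythroid genes 2 and 2 each. Leukocyte markers had 0 higher and 3 lower of 3 tested, and hepatocyte markers 1 higher and 2 lower of 3 tested. Unadjusted p under 0.05 was reached by 3 of the loop and distal genes, 2 of the hepatocyte genes, 1 each of the collecting duct, podocyte, endothelial and erythroid genes, and 0 of the early-segment, late-segment, progenitor and leukocyte genes.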

How the data were processed

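RNA of kidney cortex from 23 pigs was examined, grouped by the genotype labels. With kallisto and the reference Sscrofa11.1, the authors derived and deposited 1 estimated count per transcript, not normalized. The authors also deposited TPM, in which kallisto corrects each estimate for effective length and scales every library to a fixed sum.

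Estimated counts of 77689 transcripts were summed by symbol to 26687 genes (25476 with a count) and rounded to whole numbers. CPM were scaled by TMM, and log2 CPM used a prior count of 2. edgeR 4.0.16 on R 4.3.3 (TMM, filterByExpr, quasi-likelihood test, Benjamini-Hochberg adjustment, limit 0.05) was fitted to all genes. CF was compared with non-CF in 1 fit, the 3 labels pairwise in a second, and the last held the CF label, the pig number set and their product. All 3 used the genes that pass the filter for CF and non-CF. The pairwise fit was first run with the filter set on the 3 labels, and this was replaced after its counts had been seen, so that all comparisons test the same genes. The first version is kept as an alternative.

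Alternatives were DESeq2 1.42.0, median-of-ratios and upper-quartile factors, no filter, the pig number set as a term, each set alone, WT alone as the control, each library left out, and an exact Mann-Whitney U test (genes with 5 or more counts in 47% or more of the libraries, pseudocount 0.5). The sets come from a multidimensional scaling with axes of 17.2% and 10.6% of variance, where a gap of 0.321 on the second axis exceeded the next of 0.181. Tests were also tried on simulated data, from which no result is reported here.

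The members and lists were chosen with earlier results of these data known. Named genes are the members, their listed partners, blood-side carriers and relatives, the most abundant and any called gene of each marker list, the 3 genes most like each tested member (at least 1 CPM), and CFTR. CALB1 was named outside this rule, after its values were seen. Of 97 listed genes 94 were found. Some listed genes are withheld for evaluation and are counted but not reported here, nor is a sequence search that needs one of them.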

Additional observations from a re-analysis of the deposited data

Results flagged for a closer look

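SLC6A19 was singled out by the test of whether CF against non-CF differs between the pig number sets. Its log2 fold change was higher by 1.20 in the higher-numbered pigs (SE 0.356), with an unadjusted p of 0.00259 from edgeR's quasi-likelihood test of the product term. After Benjamini-Hochberg adjustment over all genes the edgeR p was 0.212, and 0.130 to 0.374 with 1 library left out, and DESeq2 gave an adjusted p of 0.0555. The result therefore failed the correction.

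SLC7A9 was singled out by the same test. The difference of its log2 fold change, higher-numbered less lower-numbered pigs, was -0.50 (SE 0.201), with an unadjusted p of 0.0200 from edgeR's quasi-likelihood test. The Benjamini-Hochberg adjusted p of edgeR was 0.375, and 0.205 to 0.572 with 1 library left out, and that of DESeq2 was 0.285. This result failed the correction as well. These 2 genes were the ones with an unadjusted p under 0.05 among 9 members tested.

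In the 22 groups formed by the labels WT and HET for the 10 carriers and CFTR, no library stood apart from its group by Dixon's criterion at 95%.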

How the results depend on the processing

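For CF against non-CF the count of members called was 1 with DESeq2 and 0 under the 8 other alternatives, the exact Mann-Whitney U test among them (3 members at an unadjusted p under 0.05), and leaving out 1 library gave 0 to 1. For CF against WT it was 1 with DESeq2 and 0 to 1 with 1 library left out. The called member was SLC6A15 each time, in edgeR without CF pig 4 or WT pig 23 (CF against non-CF) and without WT pig 23 (CF against WT). For HET against WT, CF against HET and the difference between sets, 0 members were called under each alternative. With the filter set on the 3 labels, which was fitted first and made an alternative after seeing the data, 0 members and 72, 1 and 0 genes were called by edgeR for CF against WT, HET against WT and CF against HET.

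The count of all genes called for CF against non-CF, 73, was 507 with DESeq2, 148 with the pig number set as a term, 0 in the lower-numbered and 473 in the higher-numbered pigs alone, and 17 (without HET pig 21) to 203 (without CF pig 4) with 1 library left out. For CF against WT, also 73, it was 20 (without WT pig 12) to 203 (without CF pig 4) with 1 library left out. It was 139 with upper-quartile factors, 186 with the pig number set as a term and 577 with DESeq2. For HET against WT it was 1 to 4 with 1 library left out and 33 with DESeq2. For CF against HET it was 0 to 3 with 1 library left out and 4 with median-of-ratios or upper-quartile factors. The pig number set as a term gave 5 there, and DESeq2 gave 65. For the difference between sets, 4, it was 150 with DESeq2 and 1 to 91 (without CF pig 1) with 1 library left out. Among the left-out fits it was 48 without WT pig 17 and 40 without CF pig 6. Under edgeR the lower-numbered pigs alone had 1958 genes at an unadjusted p under 0.05, and DESeq2 was not run on them. Upper-quartile factors moved the split of called genes for CF against non-CF to 48 higher and 53 lower from 51 and 22. For CF against WT they moved it to 36 higher and 103 lower from 32 and 41.

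Directions for CF against non-CF turned for 5 of the 9 tested members. SLC6A19 had 0.021 and SLC6A20 -0.061 in the higher-numbered pigs alone, SLC7A9 had 0.13 in the lower-numbered pigs alone and 0.035 against WT alone, and SLC3A1 had 0.080 against WT alone. Against WT alone, leaving out WT pig 12 turned both back, to -0.094 and -0.065, and leaving out WT pig 23 gave 0.15 and 0.27. SLC36A1, near 0 throughout, had -0.0011 with upper-quartile factors and -0.031 to 0.059 with 1 library left out. SLC36A2, -0.015 without the filter, had 0.078 to 0.11 in the 3 left-out fits in which it passed the filter (without CF pig 5, 10 or 11). It also passed the filter in the lower-numbered pigs alone. There it had 0.207 ± 0.125 CPM (SD, n = 6) under CF and 0.246 ± 0.115 CPM (SD, n = 7) in non-CF. The cause of these turns was not tested. SLC6A18, SLC6A15, SLC6A7 and SLC7A13 kept their direction under the alternatives run. With 1 library left out, CF against non-CF gave -0.71 to -0.51 for SLC6A19, -0.32 to -0.17 for SLC3A1, 0.15 to 0.27 for SLC6A18, 0.54 to 0.66 for SLC6A15, 0.57 to 0.76 for SLC6A7 and 0.22 to 0.34 for SLC7A13. Ranked by CPM in place of TPM, 5 of 10 members kept their rank, since CPM does not account for length. The sets hold few libraries per label, and depth limits what can be said of SLC36A2. No paired analysis was possible because the labels give no litter and each pig number occurs once.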

Other observations

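Levels by pig number set, over all labels, are given here for genes chosen after their values were seen. SLC6A18 had 74.3 ± 13.4 CPM (SD, n = 13) in the lower-numbered and 93.9 ± 22.4 CPM (SD, n = 10) in the higher-numbered pigs, and SLC3A1 108 ± 35.1 and 132 ± 34.6 CPM. The sets were found from the libraries' own expression, so these are descriptions with no test.

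CF pig 9 had the highest SLC6A19, SLC6A18, SLC3A1 and SLC7A9 of the libraries labelled CF by CPM after TMM scaling (37.5, 138, 173 and 39.7 CPM) and the highest summed level of the 10 carriers under that label, 192 TPM. By TPM, CF pig 8 was above it for SLC6A19 (13.3 against 10.3 TPM) and SLC7A9 (26.0 against 23.3 TPM). Without it the log2 fold change for CF against non-CF was -0.71 for SLC6A19, 0.15 for SLC6A18 and -0.32 for SLC3A1. It was singled out after its values were seen.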
